A study of Mus musculus with 50 samples.

Results

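The interferon regulatory factors (IRFs) are transcription factors that share a DNA-binding domain and recognise interferon-responsive control elements. The 8 genes described here, Irf1, Irf2, Irf3, Irf4, Irf5, Irf7, Irf8 and Irf9, were taken by symbol from the 53700 genes in the count files of 50 mice. All 8 passed the filter on low counts (more than 2 mice at 1 CPM or above, CPM being the count scaled to a library total) and were among the 16696 genes tested.

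Microglia, the resident macrophages of the brain, were sorted from the hippocampus of individual male C57BL/6J mice as CD45int CD11b+ cells, and their poly-A RNA was sequenced. Control mice (CTR) and mice exposed to early-life stress (ELS, limited bedding and nesting material from postnatal day (P) 2 to P9) were compared at P9 (12 CTR and 13 ELS mice, with no injection) and at P200. At P200, mice received an intraperitoneal injection of PBS (7 CTR and 6 ELS mice) or of 1 mg/kg lipopolysaccharide (LPS; 7 CTR and 5 ELS mice) and were sacrificed 3 hours later. Mice are named here by group and by the pair of numbers in their labels, of which the first is taken as the nest. Myelin was removed on a Percoll gradient at P200 and not at P9, and only P200 mice were injected. The 2 ages were also separate cohorts. Age cannot be told apart from the Percoll step, the injection or the cohort.

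The family divides by role. IRF3 and IRF7 are activated by phosphorylation downstream of Toll-like receptors and nucleic acid sensors and switch on type I interferon genes, while IRF5 acts downstream of MyD88 on inflammatory cytokine genes. IRF9 is the DNA-binding subunit of the complex ISGF3, which binds the interferon-stimulated response element (ISRE). IRF1 is an inducible activator, IRF2 competes with it for the same sites, and IRF4 and IRF8 act with partners such as PU.1 in the development of blood cells, IRF8 being required for microglia. LPS, a bacterial cell wall component, is sensed by Toll-like receptor 4. Much of the control of these proteins lies in phosphorylation and movement to the nucleus, which RNA counts do not show.

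Counts per mouse ranged from 5152838 to 42231258 (median 19960409.5). All 12 microglial marker genes examined had a group mean of at least 1 CPM in every group, and their summed level was 39870 to 73400 CPM at P9, 83720 to 92060 CPM in P200 PBS mice and 70200 to 86310 CPM in P200 LPS mice. Of 12 monocyte and neutrophil markers, 2 were tested, and the sum of the list was 0.712 to 15.4 CPM in any mouse, with Ly6g and Retnlg at 0 in all mice. The 3 mice with the fewest detected genes were P9-ELS nest 19 mouse 3 (12482 genes), P200-CTR-PBS nest 1 mouse 1 (12854 genes) and P9-ELS nest 19 mouse 2 (15731 genes). Every test of the 8 genes was also made without them. In bulk RNA, fewer cells of a type and less RNA per cell cannot be told apart.

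All 8 genes had an entry in the RefSeq promoter table (GRCm38.p6), and each of their 11 windows was found once in GRCm39, the build of the counts. In the 250 bases upstream of the listed starts, the core of the ISRE (a pair of GAAA repeats 2 bases apart, either strand) was found for Irf2, and the core of the gamma-activated site (GAS, TTCNNNGAA, a palindrome bound by STAT dimers) was found for Irf1, Irf2 and Irf8. Across all 32851 windows, 2.98% held the ISRE core and 7.02% the GAS core. Counted by gene, 3.46% of 27025 genes held the ISRE core and 8.13% the GAS core. No match to either was present in the windows of Irf3, Irf4, Irf5, Irf7 or Irf9. The 5 matches are printed with the core in capitals and the positions counted from the transcription start.
Irf1 GAS core, -90 to -82, chr11:53660741-53660769, upstream of every annotated transcript: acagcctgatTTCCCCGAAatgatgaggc
Irf2 ISRE core, -241 to -232, chr8:47192530-47192558, in an intron of a longer transcript: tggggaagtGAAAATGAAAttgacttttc
Irf2 GAS core, -224 to -216, chr8:47192546-47192574, in the same intron: aaattgacttTTCCGAGAAatgatgaaag
Irf8 GAS core, -171 to -163, chr8:121462916-121462944, upstream of every annotated transcript: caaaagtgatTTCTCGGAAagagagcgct
Irf8 GAS core, -153 to -145, chr8:121462934-121462962, upstream of every annotated transcript: aagagagcgcTTCAGAGAAggcggatttg
The coordinates are on GRCm39 and all 5 runs are on the plus strand, which is the strand of these 3 genes. A match is a stretch of letters and not a site shown to be bound.

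**Figure D1:**
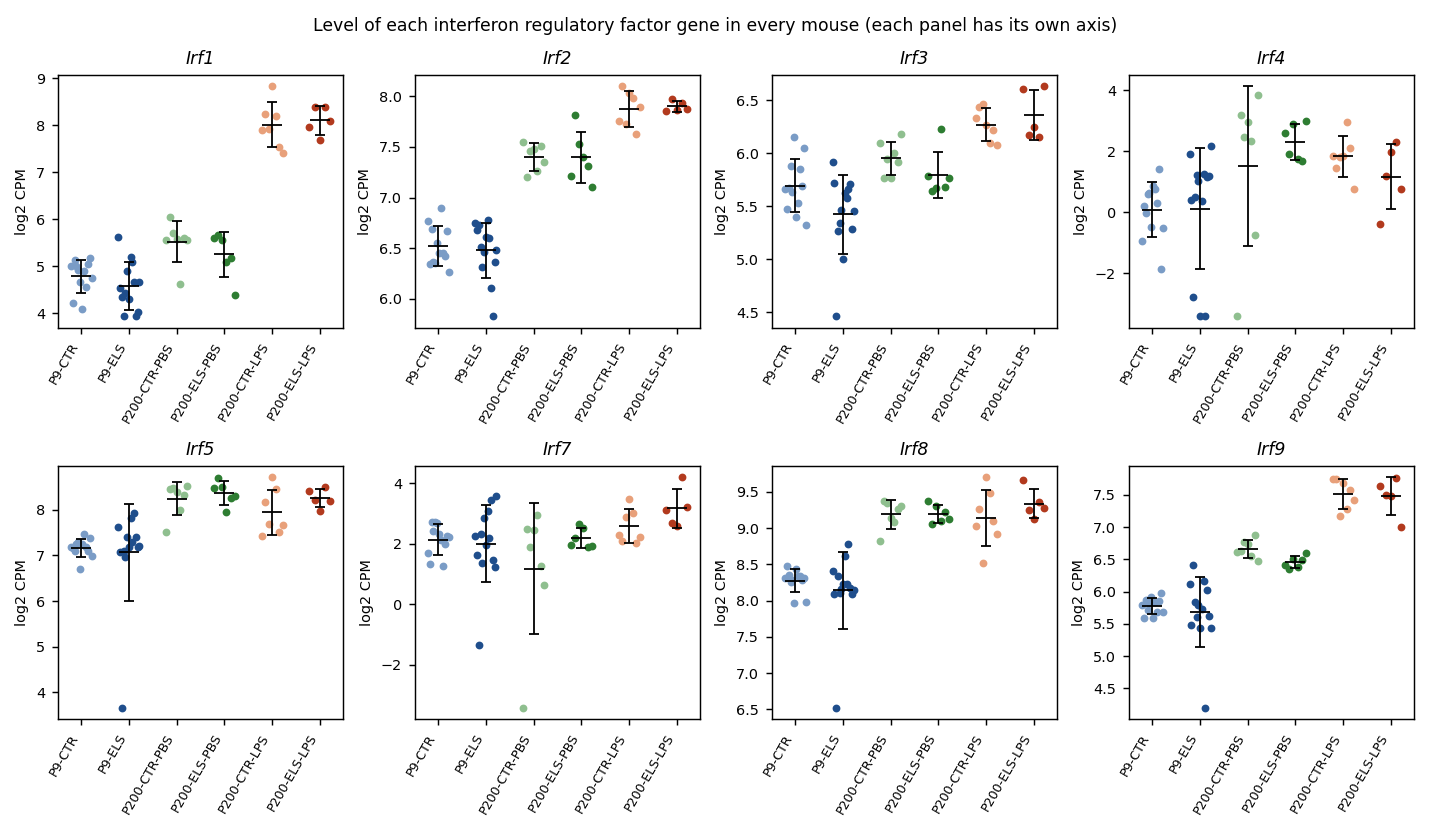
Level of each gene (log2 CPM, with a prior count of 2) in each of the 50 mice; points are mice and black bars give the mean ± SD of each group, and each panel has its own vertical axis. Within each condition the LPS mice sit above the PBS mice for Irf1, Irf2 and Irf9, and single low mice stand apart in P9-ELS for Irf5, Irf8 and Irf9.

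In unchallenged microglia Irf8 and Irf5 had the highest levels of the family and Irf4 and Irf7 the lowest. To set genes side by side, CPM was divided by transcript length in kb. Per kb of the canonical transcript, P200-CTR-PBS mice had 142 ± 30.9 CPM per kb of Irf5 and 116 ± 14.8 of Irf8 (SD, n = 7), followed by Irf2 at 67.4 ± 6.102, Irf9 at 36.6 ± 3.57, Irf3 at 30.1 ± 3.26 and Irf1 at 22.3 ± 5.75. Irf7 and Irf4 were at 1.54 ± 1.096 and 1.25 ± 1.04 CPM per kb. The order of the leading pair depended on the length used. Per kb of all annotated exons of a gene, Irf8 led with 60.4 ± 7.72 CPM per kb against 43.4 ± 9.45 of Irf5. By the same measure the ranges of mean ± SD overlapped between Irf3 (17.9 ± 1.94), Irf9 (17.6 ± 1.71) and Irf2 (15.15 ± 1.37).

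After LPS, Irf1 took a larger share of the summed per-kb level. It made up 5.32 ± 1.23% of the summed level in P200-CTR-PBS and 22.1 ± 3.28% in P200-CTR-LPS (canonical length), and 4.39 ± 0.984% and 21.5 ± 3.20% in the ELS groups. Irf5 and Irf8 together held most of the summed level in PBS mice, with shares of 33.7 ± 4.29% and 27.8 ± 1.28% in CTR. After LPS these shares were 20.7 ± 3.27% and 20.4 ± 2.45%. The shares sum to 100 in each mouse, so a larger share of Irf1 lowers the others without any change in their own level.

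**Figure D2:**
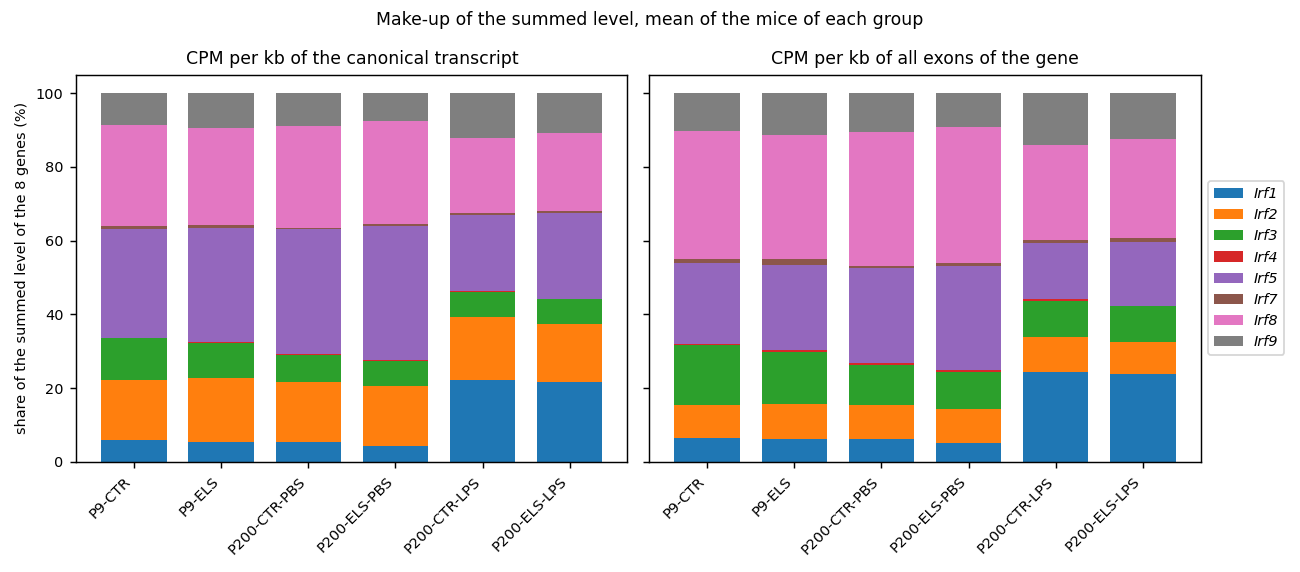
Mean share (%) of each gene in the summed per-kb level of the 8 genes, by group, with CPM divided by the canonical transcript length (left) or by the length of all exons (right). The Irf1 segment widens in both LPS groups by either length, whereas the order of Irf5 and Irf8 differs between the panels.

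The comparison of LPS with PBS asks how the family answered an immune challenge in adult microglia. Irf1, Irf2 and Irf9 rose in CTR and in ELS mice, and Irf3 rose in ELS mice by the same test. Irf1 was the member with the largest change, 5.68-fold in CTR and 7.06-fold in ELS. In CTR, 3 of the 8 genes were higher and none lower at an adjusted p under 0.05 (edgeR quasi-likelihood test, Benjamini-Hochberg over all genes), where 14.9% of all tested genes were called (8.73% higher). In ELS, 4 were higher and none lower, where 12.3% of all tested genes were called (7.4% higher). The median log2 fold change of the 8 genes was 0.40 in CTR and 0.53 in ELS, against 0.005 and -0.035 for all genes. With a log2 fold change over 1 required as well, Irf1 remained in CTR (9.62% of all genes) and Irf1 and Irf9 in ELS (7.86% of all genes).

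Irf1, the inducible activator, lies on chromosome 11 (53660812-53669200, plus strand). Its level in P200-CTR-PBS ran from 24.5 to 66.3 CPM with a median of 48.0, and in P200-CTR-LPS from 171 to 456 CPM with a median of 244. In P200-ELS-PBS the range was 21.0 to 50.4 CPM with a median of 41.7, and the 5 P200-ELS-LPS mice had 206, 249, 271, 335 and 337 CPM. The groups did not overlap in either condition, and every LPS mouse was above every PBS mouse. The log2 fold change was 2.51 (SE 0.24, adjusted p = 4.6e-12, edgeR) in CTR and 2.82 (SE 0.27, adjusted p = 5.4e-12, edgeR) in ELS. Gm17334, a transcript annotated on the opposite strand, shares 31.36% of the exonic bases of Irf1, held 28413 counts over all mice against 89757 for Irf1, and also rose with LPS (log2 fold change 2.202 in CTR and 2.81 in ELS, adjusted p = 3.3e-06 and 3.4e-07, edgeR). Whether the counting used strand is not given in the sources used here, so reads of this pair cannot be told apart.

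Irf2, which competes with IRF1 for the same sites, lies on chromosome 8 (47192222-47300501, plus strand) and changed far less. Its level was 147 to 187 CPM (median 175) in P200-CTR-PBS and 198 to 274 CPM (median 238) in P200-CTR-LPS. In P200-ELS-PBS it was 138 to 225 CPM (median 164), and the P200-ELS-LPS mice had 231, 233, 234, 244 and 252 CPM. Again no PBS mouse reached the lowest LPS mouse of its condition. The fold change was 1.39 in CTR (95% interval 1.18 to 1.65, adjusted p = 0.0030, edgeR) and 1.40 in ELS (1.16 to 1.69, adjusted p = 0.010, edgeR).

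Irf9, the DNA-binding subunit of ISGF3, lies on chromosome 14 (55841028-55847812, plus strand). P200-CTR-PBS mice had 88.6 to 118 CPM (median 99.2) and P200-CTR-LPS mice 145 to 216 CPM (median 190). P200-ELS-PBS mice had 82.0 to 97.3 CPM (median 87.5), and the P200-ELS-LPS mice had 128, 180, 182, 200 and 218 CPM. Here too the PBS and LPS groups were separate in both conditions. The fold change was 1.82 in CTR (95% interval 1.45 to 2.28, adjusted p = 5.6e-05, edgeR) and 2.06 in ELS (1.60 to 2.65, adjusted p = 2.1e-05, edgeR). Irf9 shares 4.86% of its exonic bases with Rnf31, which is annotated on the same strand and did not pass the test in either condition (log2 fold change 1.22 and 0.72, adjusted p = 0.13 and 0.51, edgeR).

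Separation of PBS from LPS mice was seen for 3 of the 8 genes in CTR and for 3 in ELS, each time with LPS higher, where 4.92% and 5.65% of all tested genes were higher without overlap.

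Irf3 (chromosome 7, 44647033-44652272, plus strand), which is present before stimulation and activated by phosphorylation, had 54.3 to 72.6 CPM (median 61.5) in P200-CTR-PBS and 67.5 to 88.3 CPM (median 77.0) in P200-CTR-LPS. In P200-ELS-PBS the range was 49.8 to 74.7 CPM (median 52.9), and the P200-ELS-LPS mice had 70.9, 72.3, 75.8, 97.4 and 99.3 CPM. The groups overlapped in both conditions, in ELS through the single PBS mouse nest 17 mouse 1 at 74.7 CPM. The fold change was 1.25 in CTR (95% interval 1.02 to 1.53, adjusted p = 0.15, edgeR) and 1.48 in ELS (1.18 to 1.87, adjusted p = 0.015, edgeR). The call in ELS was lost when P200-ELS-LPS nest 2 mouse 2 (adjusted p = 0.055, edgeR) or nest 11 mouse 2 (adjusted p = 0.053, edgeR) was left out.

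Irf7 (chromosome 7, 140842619-140846398, minus strand), itself an interferon-stimulated gene and the amplifier of the type I response, was low throughout. P200-CTR-PBS mice had 0 to 7.56 CPM (median 3.62) and P200-CTR-LPS mice 3.96 to 11.14 CPM (median 4.80). P200-ELS-PBS mice had 3.59 to 6.26 CPM (median 4.11), and the P200-ELS-LPS mice had 5.97, 6.31, 8.63, 9.27 and 18.21 CPM. The groups overlapped in both conditions, although 4 of the 5 P200-ELS-LPS mice were above every P200-ELS-PBS mouse. The log2 fold change was 0.77 in CTR (SE 0.50, adjusted p = 0.34, edgeR) and 1.08 in ELS (SE 0.56, adjusted p = 0.22, edgeR). In ELS the gene passed the test when the 3 mice with the fewest detected genes were left out (log2 fold change 1.08, adjusted p = 0.036, edgeR) and when only the compared groups were fitted (1.07, adjusted p = 0.037, edgeR).

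Irf4, Irf5 and Irf8 did not pass the test with LPS in either condition. Irf8 (chromosome 8, 121463096-121485659, plus strand), the lineage factor of microglia, had 452 to 663 CPM (median 612) in P200-CTR-PBS and 367 to 831 CPM (median 547) in P200-CTR-LPS. In P200-ELS-PBS it had 531 to 665 CPM (median 577), and the P200-ELS-LPS mice had 560, 607, 618, 654 and 809 CPM. Its fold change was 0.992 in CTR (95% interval 0.789 to 1.25) and 1.104 in ELS (0.852 to 1.43). Irf5 (chromosome 6, 29526276-29541870, plus strand) had 184 to 370 CPM (median 335) in P200-CTR-PBS and 172 to 419 CPM (median 207) in P200-CTR-LPS, with a fold change of 0.837 (0.587 to 1.19) in CTR and 0.922 (0.617 to 1.38) in ELS. Irf4 (chromosome 13, 30933209-30950959, plus strand), an inducible factor of lymphocytes and alternatively activated macrophages, had 0 to 14.2 CPM in P200-CTR-PBS and 1.60 to 7.79 CPM in P200-CTR-LPS, so that its fold change of 0.639 in CTR had a wide interval (0.246 to 1.66). In ELS the fold change of Irf4 was 0.509 (0.169 to 1.54). The PBS and LPS mice overlapped for all 3 genes.

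Whether the response to LPS differed between ELS and CTR was tested by the interaction term. None of the 8 genes was called (edgeR, smallest adjusted p = 0.96), none had an unadjusted p under 0.05, and DESeq2 called none of them. Among all genes 0.0% were called by edgeR's quasi-likelihood test, 980 genes had an unadjusted p under 0.05, DESeq2 called 15 and edgeR's likelihood-ratio test 66, none of them one of the 8. For Irf1 the ELS response was 1.24 times the CTR response (95% interval 0.773 to 2.00), for Irf9 1.13 times (0.809 to 1.59), and for Irf3 1.19 times (0.874 to 1.62). Every interval of the 8 genes included 1, and those of Irf4 and Irf7 were the widest (0.188 to 3.38 and 0.437 to 3.48).

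**Figure D3:**
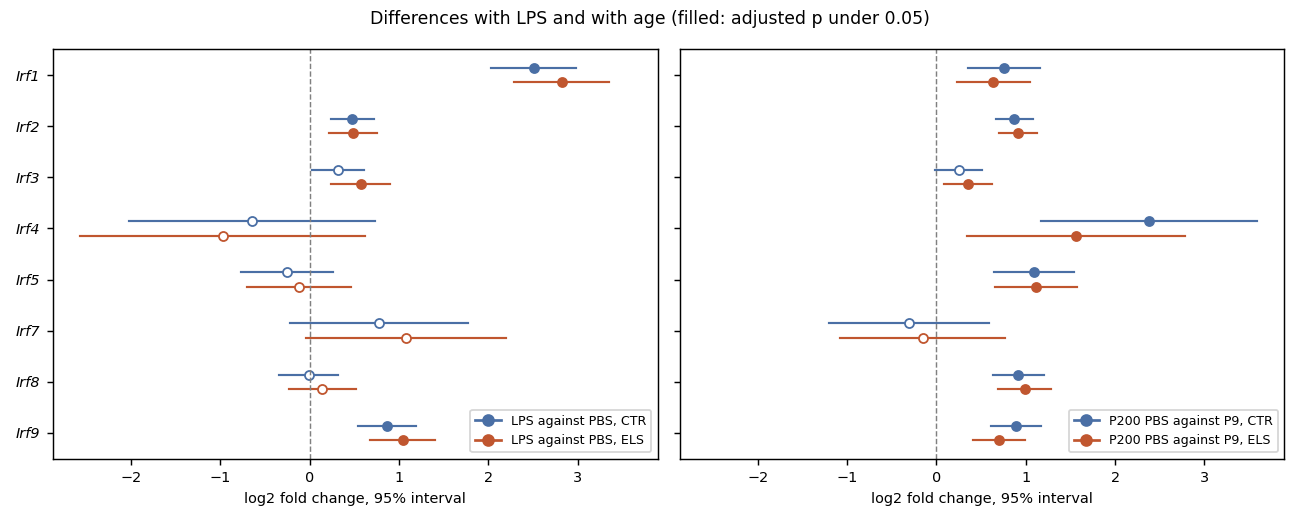
Log2 fold change of each gene with its 95% interval for LPS against PBS at P200 (left) and for P200 PBS against P9 (right), in CTR (blue) and ELS (orange) mice; filled points had an adjusted p under 0.05. Irf1 stands farthest to the right with LPS (2.51 and 2.82), while with age 6 genes in CTR and 7 in ELS lie above 0 with filled points.

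A ratio within a mouse compares members without any scaling between libraries. The ratio of Irf1 to Irf2 counts had a geometric mean of 0.272 in P200-CTR-PBS mice (0.160 to 0.452) and 1.099 in P200-CTR-LPS mice (0.717 to 1.75). In ELS it was 0.226 (0.153 to 0.326) with PBS and 1.15 (0.885 to 1.38) with LPS. The difference on the log2 scale was 2.01 in CTR (exact permutation test, two-sided p = 0.00058, adjusted p = 0.012 over 21 ratio comparisons) and 2.35 in ELS (exact permutation test, two-sided p = 0.0043, adjusted p = 0.045). Both raw p-values are the smallest that groups of these sizes allow. Leaving out any 1 of the 11 ELS mice kept the difference between 2.24 and 2.46 but brought the smallest reachable p up, so that the adjusted p was 0.083 to 0.1 (exact permutation test). The ratios of Irf7 to Irf3 and of Irf5 to Irf4 did not pass the test in any of their 14 comparisons (exact permutation test where a group had fewer than 10 mice and 100000 resamples at P9, smallest adjusted p = 0.46).

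**Figure D4:**
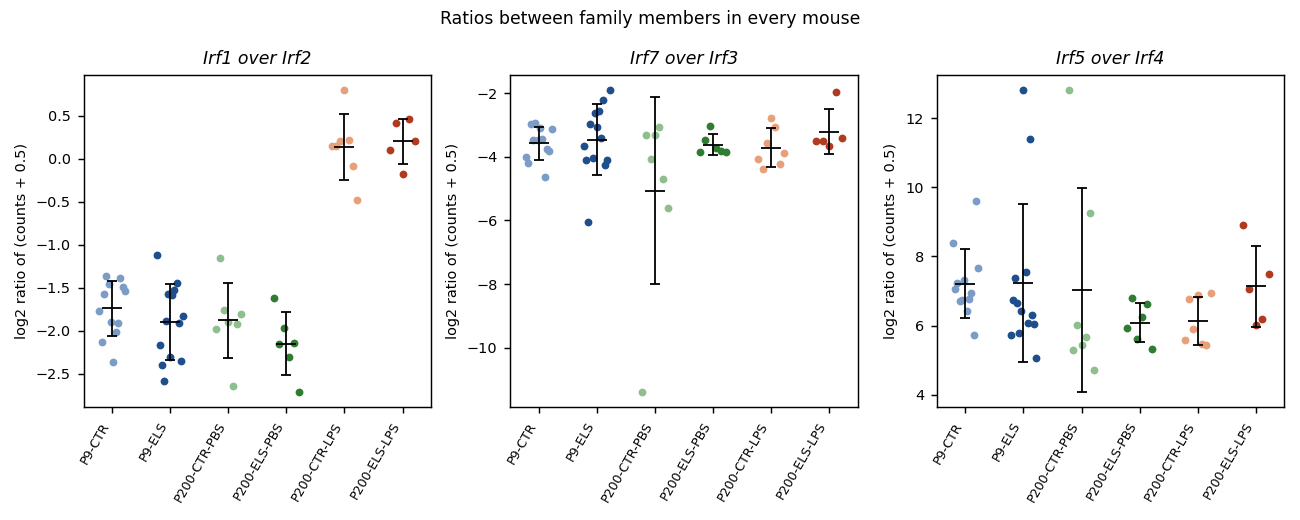
Log2 ratio of counts (each plus 0.5) of Irf1 to Irf2, Irf7 to Irf3 and Irf5 to Irf4 in every mouse, with the mean ± SD of each group in black. Irf1 over Irf2 has means of 0.14 and 0.20 in the LPS groups and of -2.15 to -1.74 in the 4 other groups, while the other ratios overlap between all groups and P200-CTR-PBS nest 1 mouse 1 stands far from its group in both.

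The comparison of P200 PBS with P9 asks how the family differed between neonatal and adult microglia. It shares its P200 PBS mice with the comparison with LPS. Irf1, Irf2, Irf4, Irf5, Irf8 and Irf9 rose with age in CTR, and the same 6 genes and Irf3 rose in ELS. Irf7 was the only member that did not pass the test in either condition. In CTR, 6 of the 8 genes were higher and none lower, where 44.1% of all tested genes were called (17.4% higher). In ELS, 7 were higher and none lower, where 42.2% of all tested genes were called (2863 of 16696 higher). The median log2 fold change of the 8 genes was 0.88 in CTR and 0.81 in ELS, against -0.09 and -0.014 for all genes. Irf4 and Irf5 were called with a log2 fold change over 1 in both conditions, where 26.4% of all tested genes in CTR and 26.2% in ELS were called with a change of that size in either direction.

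Irf8 had 251 to 355 CPM (median 317) in P9-CTR and 452 to 663 CPM (median 612) in P200-CTR-PBS. In P9-ELS it had 91.8 to 440 CPM (median 288) and in P200-ELS-PBS 531 to 665 CPM (median 577). The ages did not overlap in either condition. The fold change was 1.89 in CTR (95% interval 1.55 to 2.31, adjusted p = 6.6e-07, edgeR) and 1.98 in ELS (1.62 to 2.43, adjusted p = 2.5e-07, edgeR). The lowest value, 91.8 CPM, belonged to P9-ELS nest 19 mouse 2, the highest P9-ELS value to nest 19 mouse 3, and the lowest P200-CTR-PBS value to nest 1 mouse 1. Without the 3 mice with the fewest detected genes the log2 fold changes were 0.97 and 0.96.

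Irf5 showed the same order. P9-CTR mice had 104 to 179 CPM (median 146) and P200-CTR-PBS mice 184 to 370 CPM (median 335). P9-ELS mice had 12.6 to 243 CPM (median 148) and P200-ELS-PBS mice 248 to 413 CPM (median 339). The ages were again separate in both conditions, with the lowest adult mouse little above the highest P9 mouse in each. The lowest adult CTR mouse was nest 1 mouse 1 at 184 CPM, where the other 6 had 254 to 370 CPM, and the highest P9-ELS mouse was nest 19 mouse 3. The fold change was 2.14 in CTR (95% interval 1.57 to 2.91, adjusted p = 6.3e-05, edgeR) and 2.17 in ELS (1.58 to 2.97, adjusted p = 7.0e-05, edgeR). Nest 19 mouse 2 was also the lowest P9-ELS mouse for Irf5, at 12.6 CPM where the other 12 had 126 to 243 CPM.

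Irf2 had 77.1 to 119 CPM (median 87.4) in P9-CTR and 56.7 to 110 CPM (median 90.9) in P9-ELS. All adult PBS mice, at 138 CPM or more, lay above all P9 mice of either condition. Its fold change was 1.83 in CTR (adjusted p = 1.1e-09, edgeR) and 1.88 in ELS (adjusted p = 6.4e-10, edgeR), the smallest adjusted p of the family in each.

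Irf9 had 48.0 to 63.2 CPM (median 56.2) in P9-CTR and 18.28 to 85.1 CPM (median 52.9) in P9-ELS. The ages were separate in CTR and overlapped in ELS, where nest 19 mouse 2 was the highest P9 mouse at 85.1 CPM and nest 19 mouse 3 the lowest at 18.28 CPM. Its fold change was 1.85 in CTR (adjusted p = 7.5e-07, edgeR) and 1.62 in ELS (adjusted p = 8.7e-05, edgeR). Without the 3 mice with the fewest detected genes the ELS log2 fold change was 0.69, against 0.70 with them.

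Irf1 had 17.0 to 36.3 CPM (median 29.7) in P9-CTR and 15.14 to 49.5 CPM (median 22.9) in P9-ELS. The ages overlapped in both conditions, in CTR through the adult nest 15 mouse 1 at 24.5 CPM. Its fold change was 1.69 in CTR (adjusted p = 0.0016, edgeR) and 1.56 in ELS (adjusted p = 0.0098, edgeR). In ELS the call was lost when only the compared groups were fitted (adjusted p = 0.052, edgeR) and when counts were summed per nest (adjusted p = 0.055, edgeR).

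Irf4 had the largest fold change with age and the widest interval. It had 0.183 to 2.56 CPM (median 1.102) in P9-CTR and 0 to 14.2 CPM (median 5.49) in P200-CTR-PBS, and 0 to 4.42 CPM (median 1.95) in P9-ELS against 3.11 to 7.88 CPM (median 4.79) in P200-ELS-PBS. The ages overlapped in both conditions, and 1 P200-CTR-PBS mouse (nest 1 mouse 1) and 2 P9-ELS mice had no read of the gene. Its fold change was 5.197 in CTR (95% interval 2.25 to 12.0, adjusted p = 0.0011, edgeR) and 2.94 in ELS (1.26 to 6.85, adjusted p = 0.033, edgeR). With limma and the nest as a block, in place of edgeR without it, the CTR log2 fold change was 1.31 and not 2.38. The call was lost (adjusted p = 0.22, limma). The nest correlation in limma was 0.078. Model and nest block changed together, so their parts in this drop cannot be told apart. In ELS the call was lost on leaving out P200-ELS-PBS nest 2 mouse 1, nest 11 mouse 1 or nest 20 mouse 2 (adjusted p = 0.055, 0.073 and 0.079, edgeR), with only the compared groups (0.072, edgeR) and with counts summed per nest (0.064, edgeR).

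Irf3 had 40.0 to 70.9 CPM (median 50.7) in P9-CTR and 21.9 to 60.3 CPM (median 44.1) in P9-ELS, overlapping with the adult mice in both conditions. The lowest P9-ELS mouse was nest 19 mouse 2, where the other 12 had 32.0 to 60.3 CPM. Its fold change was 1.19 in CTR (adjusted p = 0.12, edgeR) and 1.27 in ELS (adjusted p = 0.031, edgeR). The ELS call rested on P200-ELS-PBS nest 17 mouse 1, without which the log2 fold change was 0.25 (adjusted p = 0.16, edgeR). In CTR the gene passed the test without P9-CTR nest 58 mouse 2 (adjusted p = 0.046, edgeR) and with edgeR's own filter on low counts (0.046, edgeR). Irf7 had 2.30 to 6.46 CPM (median 4.58) in P9-CTR and 0.304 to 11.8 CPM (median 4.42) in P9-ELS, and its fold change with age was 0.809 in CTR (95% interval 0.436 to 1.503) and 0.899 in ELS (0.475 to 1.70).

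Groups of different age did not overlap for 4 of the 8 genes in CTR and for 3 in ELS, each higher in adults, where 6.56% and 4.6% of all tested genes were higher without overlap. Marker genes also differed with age. Of the 12 microglial markers, 8 rose and 1 fell in CTR and 7 rose and 1 fell in ELS. The sum of 7 markers of border-associated macrophages was 476 to 921 CPM in P9 mice and 2.84 to 10.6 CPM in P200 PBS mice, and 7 of the 7 fell in CTR and 5 of the 7 in ELS. Most of this sum at P9 was Mrc1, at 461 to 910 CPM. Every other marker of the list had a median of at most 5.06 CPM in each P9 group. The sum of 5 astrocyte markers was 65.1 to 236 CPM at P9 and 0.0509 to 16.4 CPM in P200 PBS mice. Of 5 neuron markers, 5 fell in CTR and 4 in ELS. The part of these cells in the age differences of the 8 genes was not tested.

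Among markers of other cells, 2 of the 5 tested dendritic cell genes, Ccr7 and Zbtb46, rose with LPS in both conditions. The sum of the 7 dendritic markers was 3.15 to 15.9 CPM in PBS mice and 12.5 to 117 CPM in LPS mice. Ccr7 had 0 to 0.543 CPM in PBS and 1.57 to 67.6 CPM in LPS mice, and Zbtb46 0.652 to 7.05 CPM and 3.79 to 44.1 CPM. Klrd1 had 0.652 to 9.89 CPM in PBS and 4.33 to 13.6 CPM in LPS mice. Flt3, Xcr1, Clec9a and Cd209a, the rest of the list, had at most 1.55 CPM in PBS and 4.01 CPM in LPS mice. Of 5 astrocyte markers, Gfap and Gja1 rose with LPS in ELS, and of 7 border-associated macrophage markers Cbr2 rose in CTR. Of the 12 microglial markers, Gpr34, P2ry12 and Sall1 fell in both conditions. The part of these cells in the LPS differences was not tested.

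Whether the difference with age itself differed between ELS and CTR was tested by a second interaction term, in which none of the 8 genes was called (edgeR, smallest adjusted p = 0.81), none had an unadjusted p under 0.05 and DESeq2 called none. Of all genes 0.0299% were called, against 20 genes by DESeq2 and 29 by the likelihood-ratio test, none of them one of the 8. The ELS age difference was 0.566 times the CTR one for Irf4 (95% interval 0.165 to 1.94), 0.877 times for Irf9 (0.658 to 1.17) and 1.05 times for Irf8 (0.783 to 1.41).

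The comparison of ELS with CTR asks whether early rearing altered these genes at P9, in adulthood, or under LPS. None of the 8 genes was called at any of these stages, also with counts summed per nest, the unit that received the rearing condition. At P9, 0.0% of all tested genes were called (edgeR), 914 genes had an unadjusted p under 0.05, DESeq2 called 0 and edgeR's likelihood-ratio test 1. In P200 PBS mice 0.168% of all genes were called, against 178 genes by DESeq2 and 215 by the likelihood-ratio test. In P200 LPS mice 0.0% were called, with 798 genes at an unadjusted p under 0.05, 2 called by DESeq2 and 10 by the likelihood-ratio test. Neither of these other tests called any of the 8 genes in the 3 comparisons.

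The width of the interval differed between members. These intervals take the mouse as the unit, while the rearing was given to nests, 4 in P9-ELS and 5 in each other group. With counts summed per nest, the SE of the log2 fold change at P9 was larger for every member. It was 0.259 against 0.17 for Irf1 and 0.16 against 0.123 for Irf8. In P200 LPS mice the SE of Irf5 was smaller, at 0.193 against 0.277. At P9, ELS mice had 0.954 times the CTR level of Irf8 (95% interval 0.803 to 1.13), 0.978 times that of Irf2 (0.864 to 1.11) and 0.986 times that of Irf9 (0.834 to 1.17). Irf3 was the only member with an unadjusted p under 0.05 in any ELS comparison, at 0.840 times the CTR level (0.720 to 0.979, p = 0.026, adjusted p = 0.91, edgeR), and 4 of the 13 ELS mice lay below every CTR mouse. In P200 PBS mice the ratio was 1.00 for Irf8 (0.789 to 1.27), 1.007 for Irf2 (0.847 to 1.196), 0.864 for Irf9 (0.685 to 1.09) and 0.832 for Irf1 (0.598 to 1.16). Irf5, although abundant, had wide intervals, with ratios of 1.08 (0.746 to 1.56) in PBS and 1.19 (0.807 to 1.75) in LPS mice. In P200 LPS mice the ratio was 1.03 for Irf1 (0.733 to 1.46), 0.979 for Irf9 (0.767 to 1.25) and 1.07 for Irf3 (0.857 to 1.34). For the low genes Irf4 and Irf7 the intervals reached from 0.239 to 2.01 and from 0.730 to 3.23 in LPS mice. Both intervals included a 2-fold higher level in ELS, and that of Irf4 also a 2-fold lower one.

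**Figure D5:**
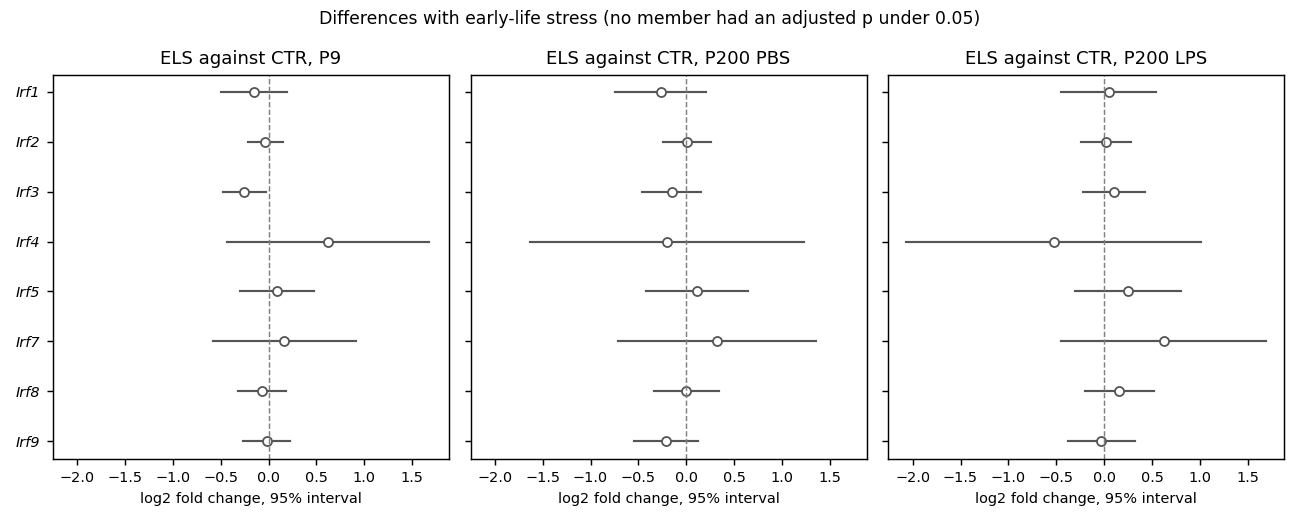
Log2 fold change of each gene for ELS against CTR with its 95% interval, at P9, in P200 PBS and in P200 LPS mice; open points mark an adjusted p of 0.05 or more. All 24 points are open, and the intervals of Irf4 and Irf7 are the widest in each panel.

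The genes that feed into the IRFs and those that answer to them were examined as lists, whose counts are descriptive and are set beside the values over all genes. With LPS 14.9% of all tested genes were called in CTR (8.73% higher) and 12.3% in ELS (7.4% higher). With age 44.1% were called in CTR (17.4% higher) and 42.2% in ELS (2863 of 16696 higher). A list near these shares in each direction says nothing particular about its members. Of 25 tested sensors, adaptors and kinases upstream of the IRFs, 12 rose and 1 fell with LPS in CTR, and 8 rose and 1 fell in ELS (list medians 0.58 and 0.48 on the log2 scale, against 0.005 and -0.035 for all genes). Tlr2, the receptor for bacterial lipoproteins, rose with a log2 fold change of 2.99 in CTR and 3.69 in ELS, and Ticam1, the adaptor TRIF of Tlr4 and Tlr3, with 2.13 in CTR. The gene that fell was Tlr4, from 377 ± 66.2 CPM (n = 7) in P200-CTR-PBS to 194 ± 45.2 CPM (n = 7) in P200-CTR-LPS (log2 fold change -0.96, adjusted p = 0.0020, edgeR), and with a log2 fold change of -1.32 in ELS. With age 10 rose and 1 fell in CTR and 11 rose and 1 fell in ELS, to be set beside the higher shares above. Among those that rose was Tlr3, the receptor for double-stranded RNA, with log2 fold changes of 2.27 and 2.1. Irak1, a kinase of the MyD88 pathway, was the one that fell (-0.69 and -0.53).

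The interferons themselves were close to absent from the counts. None of 10 interferon genes passed the filter, and Ifna4, Ifna5, Ifne and Ifng had no read in any mouse, which allows up to 0.0028 CPM over all mice (3 counts, covering counting error only). Ifnb1 had 26 reads in 4 of the 7 P200-CTR-LPS mice and 45 reads in 3 of the 5 P200-ELS-LPS mice, against 18 reads in 2 P200-CTR-PBS mice and no read in P200-ELS-PBS. Of 11 tested receptor and JAK-STAT genes, 5 rose and 2 fell with LPS in CTR and 4 rose and 1 fell in ELS. Stat2, the partner of IRF9 in ISGF3, went from 16.1 ± 9.18 to 72.1 ± 30.4 CPM in CTR (n = 7 and 7, adjusted p = 0.00016, edgeR) and from 26.65 ± 3.18 to 70.5 ± 19.9 CPM in ELS (n = 6 and 5, adjusted p = 0.038, edgeR). Both receptor genes that fell in CTR, Ifngr1 and Il10rb, did so by less than a log2 fold change of 1 (-0.32 and -0.58).

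Of 25 tested genes of the type I interferon response, 4 rose and none fell with LPS in CTR, and 9 rose and none fell in ELS (medians 0.53 and 1.006). Of all tested genes 14.9% were called in CTR (8.73% higher) and 12.3% in ELS (7.4% higher). The listed genes that rose in CTR were Cxcl10, Oasl1, Parp14 and Trim30a. Cxcl10, a chemokine, showed the largest rise, from 1.86 ± 2.38 to 449 ± 226 CPM in CTR (log2 fold change 7.89, adjusted p = 1.9e-12, edgeR) and to 550 ± 317 CPM in ELS (log2 fold change 9.19, adjusted p = 2.1e-12, edgeR). No gene of the list passed the interaction test of ELS and LPS (25 tested, median 0.71 against -0.06 for all genes). With age 7 of the 25 rose and 3 fell in CTR, and 1 rose (Ifi35, log2 fold change 0.76) and 8 fell in ELS, no more than the shares of all genes called (44.1% and 42.2%), and none of them passed the interaction test of ELS and age.

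Of 21 tested genes of antigen processing and of the interferon-gamma response, among which are known targets of IRF1, 10 rose and 1 fell with LPS in CTR and 13 rose in ELS (medians 0.94 and 0.90). Gbp5, a guanylate-binding protein, rose from 8.19 ± 4.62 to 147 ± 86.4 CPM in CTR (log2 fold change 4.17) with a log2 fold change of 4.58 in ELS. Cd274, which encodes PD-L1, rose with a log2 fold change of 2.18 in CTR and 2.55 in ELS. The gene that fell was Psmb9, an immunoproteasome subunit (log2 fold change -0.43, adjusted p = 0.027, edgeR). With age 8 of the 21 rose and 4 fell in CTR, and 7 rose and 5 fell in ELS.

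Of 14 inhibitors of interferon and IRF signalling, 7 rose and 1 fell with LPS in CTR and 7 rose in ELS, the one that fell being Trim21, a ubiquitin ligase (log2 fold change -1.68, adjusted p = 0.038, edgeR). Socs3, an inhibitor of JAK kinases, rose most, from 19.32 ± 9.095 to 1823 ± 1428 CPM in CTR (log2 fold change 6.55), with a log2 fold change of 6.26 in ELS. Tnfaip3, which encodes the ubiquitin-editing enzyme A20, had log2 fold changes of 3.57 and 3.60. With age 7 of the 14 rose and none fell in either condition. Of all tested genes 44.1% were called with age in CTR (17.4% higher) and 42.2% in ELS (2863 of 16696 higher). Usp18, which blocks the type I interferon receptor, rose with a log2 fold change of 1.97 in CTR and 1.0 in ELS.

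Of 16 tested lineage factors that act with IRF8 or IRF4 or beside them in myeloid cells, 5 rose and 6 fell with LPS in CTR and 5 rose and 7 fell in ELS, while Irf8 itself did not pass the test. Batf, a partner of IRF4 and IRF8, went from 10.7 ± 3.86 to 84.8 ± 21.1 CPM in CTR, with log2 fold changes of 2.98 in CTR and 3.45 in ELS. Sall1, a factor of microglial identity, went from 302 ± 58.4 to 91.1 ± 14.7 CPM in CTR, with log2 fold changes of -1.73 and -2.01. With age 11 rose and none fell in CTR and 10 rose and none fell in ELS. Spi1, which encodes PU.1, did not pass the test with LPS (log2 fold change 0.235 and 0.233, adjusted p = 0.70 and 0.73, edgeR).

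In none of these lists did a gene pass the test in an ELS against CTR comparison.

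How the genes varied among mice of one group was described by the correlation of log2 CPM centred on group means over 50 mice, which share library depth and preparation and are given without a test. Irf5 and Irf8 varied together most closely of the 28 pairs, with r = 0.91 over all mice, 0.74 without the 3 mice with the fewest detected genes, 0.96 among the 25 P9 mice and 0.76 among the 25 P200 mice. Irf5 was the second nearest gene to Irf8 among all tested genes with a mean log2 CPM of at least 1. Irf1 and Irf2 had r = 0.50 (0.55 without the 3 mice). Several pairs depended on those mice: Irf8 and Irf9 had r = -0.34 with them and 0.27 without, and Irf5 and Irf7 0.62 and 0.27. The gene nearest to both Irf5 and Irf8 was Arhgdia (r = 0.96 and 0.91, and 0.86 and 0.74 without the 3 mice). For the other members the nearest genes were Tmem132a for Irf1 (r = 0.68), Sec62 for Irf2 (0.67), Cdk10 for Irf3 (0.72), Tnfrsf12a for Irf4 (0.77), Cdc42bpb for Irf7 (0.86) and Zfp131 for Irf9 (0.80). Without the 3 mice these were 0.75, 0.67, 0.54, 0.57, 0.57 and 0.46 in the same order.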

How the data were processed

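Hippocampal microglia of 50 mice were profiled by poly-A RNA-seq. Per the labels and the study's methods, the authors trimmed reads with cutadapt 2.10, aligned them to GRCm39 with STAR and counted unique exonic reads per gene with HTSeq 0.11.0. The deposited values are raw counts; the annotation release and the strand setting are not given in the sources used here. Groups came from the sample titles. The 16696 genes reaching 1 CPM in over 2 mice were tested with edgeR 4.0.16 (R 4.3.3; quasi-likelihood test, 6 group means, TMM scaling, Benjamini-Hochberg adjustment over all genes, threshold 0.05), with intervals on 44 degrees of freedom. In simulated counts with 200 of 16696 genes changed by a log2 fold change of 2 for LPS against PBS in CTR, 159 were recovered, with 8 false calls. Lengths came from GENCODE vM39 on GRCm39. Ratios used counts plus 0.5 and permutation tests (scipy 1.17.1). Members, lists and tests were chosen with earlier results of these data known. Named list genes are the 2 largest rises and falls per list with a mean log2 CPM of at least 1; Spi1, Oasl1, Parp14, Trim21, Ifnb1 and the marker genes were named after their values were seen, and a few genes that this rule would name are not reported here. The first number in a mouse's label, which the labels do not define, was taken as its nest, and within an age a nest held 1 condition. Deviations of PBS and LPS mice of the same nest correlated between -0.041 and 0.084 in 10 nests, none over 0.1, so nests were not treated as pairs. No 2 libraries were copies (smallest chi-square per degree of freedom 14.9 over 211 pairs). Alternatives were DESeq2 1.42.0, other filters, scalings, mice and nest blocks. The nest blocks used limma 3.58.1, or edgeR for the LPS comparisons and the interaction of ELS and LPS.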

Additional observations from a re-analysis of the deposited data

Results flagged for a closer look

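In 3 of 32 combinations of a gene and a P200 group, 1 mouse lay far from the rest of its group on the log2 CPM scale; about 1 in 20 such groups would be picked out by chance. Irf1 in P200-CTR-PBS nest 15 mouse 1 was 24.45 CPM, where the next lowest mouse had 46.7 CPM. Irf3 in P200-ELS-PBS nest 17 mouse 1 was 74.69 CPM, where the next highest had 54.99 CPM, and without this mouse the call of Irf3 with age in ELS was lost. Irf7 in P200-CTR-PBS nest 1 mouse 1 was 0.0 CPM, where the next lowest had 1.47 CPM; this mouse also had no read of Irf4 and had 12854 detected genes. The groups of 12 and 13 P9 mice were too large for this rule.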

How the results depend on the processing

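Each of the 72 gene and comparison results was recomputed under 59 other settings, 50 of which left out 1 mouse. No called direction turned, and 7 results changed their call in any setting, 4 of them on leaving out 1 mouse. The number of genes called with age in ELS, 7, was 4 with only the groups compared and 4 with counts summed per nest, where Irf1, Irf3 and Irf4 were lost; fewer groups, or 1 sum per nest in place of single mice, entered these fits. In the other comparisons and on leaving out 1 mouse the counts of genes called stayed within 1.5 times: 3 with LPS in CTR under each setting, 3 to 5 with LPS in ELS, 5 to 7 with age in CTR, 6 or 7 with age in ELS on leaving out 1 mouse, and 0 in the ELS comparisons and interactions. With nest as replicate block the counts were 3, 4, 5 and 7 for LPS in CTR and ELS and age in CTR and ELS, the 5 coming from the loss of Irf4. Depth limits Irf4 and Irf7, which had at most 415 and 296 reads in any mouse, and P9-ELS nest 19 mouse 3 with 5152838 counts.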
